A study of Mus musculus with 24 samples.

Results

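This report describes 8 transcription and chromatin factors of lung, gut and liver lineages in mouse lung tumours: Nkx2-1, Foxa1, Foxa2, Foxa3, Hnf4a, Gata6, Elf3 and Hmga2. They were chosen as a list of named genes, and all 8 were found in the LLC1 table of 31618 genes and in the KP table of 36040 genes. RNA had been sequenced from 24 libraries, 3 in each of 8 groups, of CD45-negative live cells that were sorted from tumours 15 days after injection of the cells into syngeneic mice. LLC1 is the Lewis lung carcinoma line, and KP comes from a genetically engineered mouse lung cancer model that carries floxed p53. The LLC1 groups were Parental LLC1, Chronic IFNG LLC1 (exposed to chronic low-level interferon gamma) and Relapsed LLC1 (relapsed after immune checkpoint blockade, ICB). The KP groups were Parental KP, Chronic IFNG KP, 1st relapse KP, 2nd relapse KP and Late relapse KP, with the same meanings. The treatment field of every sample reads none, and the labels give no strain or age of the hosts, no dose of interferon gamma, and no statement on clones or on how the 3 relapses relate to each other. Nor do they say that the 3 replicates of a group came from separate animals, so p-values here measure the spread between these samples.

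Nkx2-1 is the factor that specifies lung and thyroid epithelium. Foxa1, Foxa2 and Foxa3 are forkhead pioneer factors that open chromatin in tissues derived from the endoderm, and Hnf4a is a nuclear receptor that drives liver, intestinal and gastric gene programmes. Gata6 is a zinc-finger factor of endoderm, gut and lung, Elf3 is an ETS factor of differentiating epithelium, and Hmga2 is a chromatin protein that is abundant in embryonic tissue and in poorly differentiated tumours. In mouse lung tumours, loss of Nkx2-1 is known to be followed by a gastric-like state in which Foxa1, Foxa2 and Hnf4a are active.

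Levels are given as normalised counts, calculated back from the deposited log2 values, and differences as log2 on the deposited scale, which is compressed at low counts. Calls rest on limma: a gene counted as higher or lower where its Benjamini-Hochberg adjusted p, over all genes tested in that comparison, was below 0.05. Estimated depth was 13.3 to 34.9 M fragments per library in LLC1 and 13.7 to 32.8 M in KP. The LLC1 and KP tables were normalised separately, so levels are compared only within a line. In these bulk samples fewer cells of a type and less RNA per cell cannot be told apart.

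In KP tumours 7 of the 8 factors passed the filter on low values, and Nkx2-1 did not. Foxa3 passed through its means in the 1st and 2nd relapses alone, the groups where it was highest, so it was bound to differ between groups and its calls are given as a description. All 7 differed over the 5 KP groups by the moderated F test (limma adjusted p from 1.2e-08 for Hnf4a to 4.0e-06 for Foxa1), in a line where 87.0% of tested genes were called by that test. Hnf4a, Elf3, Foxa3 and Foxa2 were higher than in parental tumours in every other KP group. Hmga2 was lower in every one, Gata6 was called higher in the 2nd and late relapses, and Foxa1 was called lower in those same groups.

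**Figure D1:**
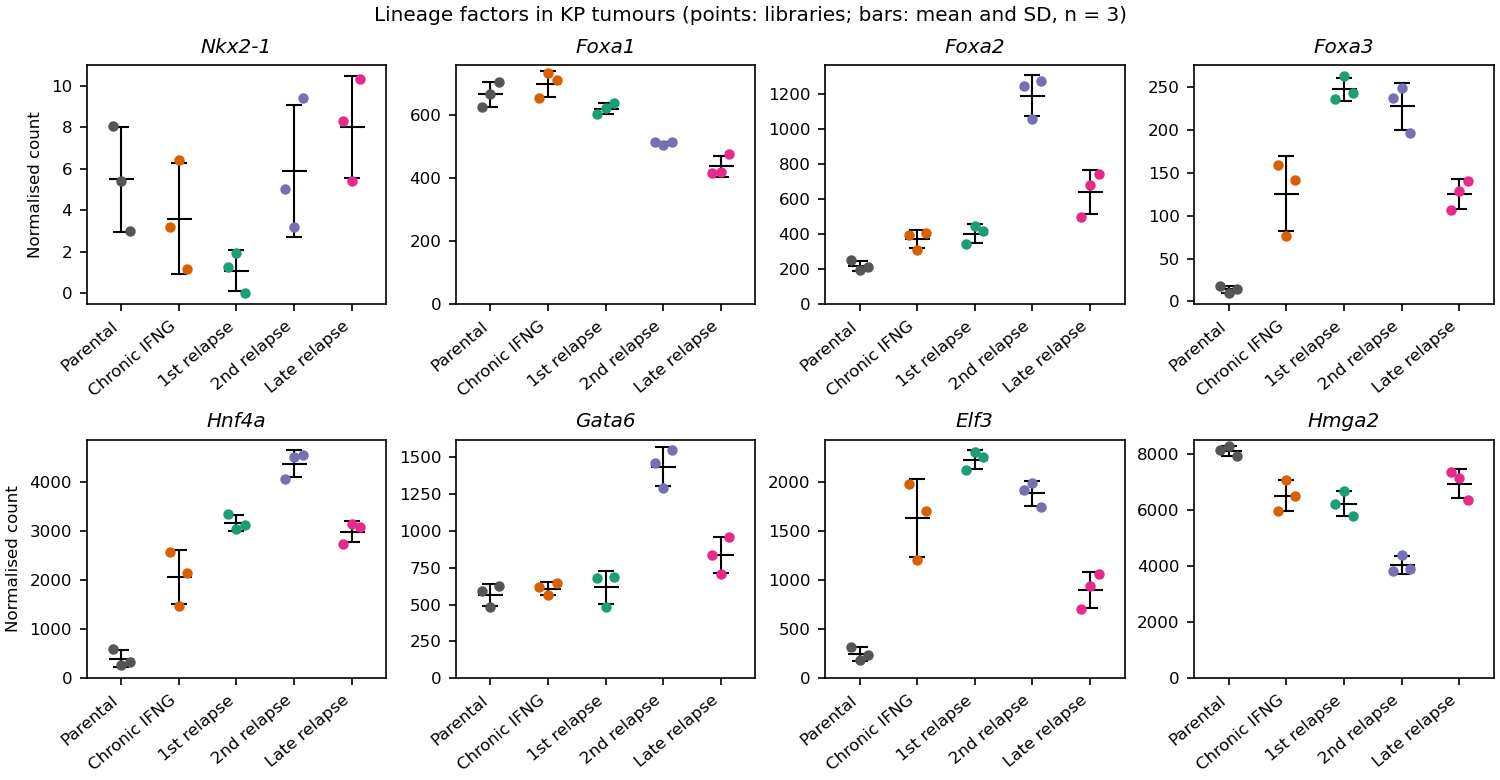
Normalised count of each factor (vertical axis, linear, 1 scale per panel) in the 15 KP libraries by group. Points are libraries and black bars the mean and SD of 3. Hnf4a, Elf3 and Foxa3 are lowest in all 3 parental libraries, Foxa2 and Gata6 are highest in the 2nd relapse, and Nkx2-1 reaches no more than 10.3.

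Promoter sequence is shown for Foxa3, Hnf4a and Elf3, the 3 factors with the largest folds of normalised counts over parental tumours in each of the 4 other KP groups. The sequences are from RefSeq on build GRCm38.p6, from the 250 bases upstream of the annotated start. They are written 5′ to 3′ on the gene's strand, and only where no GENCODE exon lies. Hnf4a (chr2:163506808-163572910, plus strand) has an upstream and a downstream start. Elf3 (chr1:135253575-135258568) and Foxa3 (chr7:19013284-19023538) are on the minus strand. No capitals are used, since no motif match lies within the stretches printed.
Hnf4a upstream start, chr2:163506607-163506807: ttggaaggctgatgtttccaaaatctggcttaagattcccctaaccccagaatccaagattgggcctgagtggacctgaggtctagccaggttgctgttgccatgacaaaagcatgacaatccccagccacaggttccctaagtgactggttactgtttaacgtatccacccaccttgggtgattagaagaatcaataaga
Hnf4a downstream start, chr2:163546943-163547154: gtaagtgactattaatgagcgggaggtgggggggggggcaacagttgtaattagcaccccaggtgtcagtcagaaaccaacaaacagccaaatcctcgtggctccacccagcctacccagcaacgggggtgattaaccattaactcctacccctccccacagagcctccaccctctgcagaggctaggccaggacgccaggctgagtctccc
Elf3, chr1:135258569-135258722: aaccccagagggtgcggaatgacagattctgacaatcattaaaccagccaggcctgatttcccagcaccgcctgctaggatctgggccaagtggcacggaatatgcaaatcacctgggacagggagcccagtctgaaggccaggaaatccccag
Foxa3, chr7:19023540-19023789: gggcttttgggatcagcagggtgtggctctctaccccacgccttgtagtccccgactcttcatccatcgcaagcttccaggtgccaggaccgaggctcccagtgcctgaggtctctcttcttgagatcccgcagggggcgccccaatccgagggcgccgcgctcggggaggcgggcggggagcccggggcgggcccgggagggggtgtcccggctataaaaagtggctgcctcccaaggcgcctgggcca

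Both strands of these windows were searched for 4 motifs. The forkhead motif TGTTTAC occurs in 3.17% of the 32851 windows of this length in the table. The HNF4 motif, written CAAAGTCCA, occurs in 0.38% of those windows. The GATA motif, written AGATAA, occurs in 9.99% of windows, and the ETS motif used here, which reads CAGGAAG, is found in 10.82%. The upstream Hnf4a start held AGATAA at -52 and CAGGAAG at -13, counted from the start, neither wholly within the stretch printed above. The windows of the downstream Hnf4a start, Elf3 and Foxa3 held none of the 4. A match describes letters only, and the tables hold 1 row per gene, so the 2 Hnf4a starts could not be told apart in the expression data. The antisense gene Hnf4aos, which overlaps Hnf4a, had 0 to 2.45 normalised counts in KP.

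Hnf4a rose in every KP group against parental tumours. Its counts were 580, 249 and 325 in the parental libraries, 2575, 1462 and 2137 in Chronic IFNG KP, and 3355, 3033 and 3113 in the 1st relapse. They were 4062, 4512 and 4550 in the 2nd relapse and 2739, 3130 and 3082 in the late relapse. No library of the other groups reached down to the parental range, and the 3 libraries of the 2nd relapse stood above all others. The fold over parental was 5.35 in Chronic IFNG KP (log2 difference 1.59 ± 0.15 SE, limma adjusted p 5.2e-06), 8.23 in the 1st relapse (2.13, 5.7e-08), 11.4 in the 2nd (2.54, 2.1e-09) and 7.76 in the late relapse (2.06, 6.7e-08). In order of level the groups ran parental, chronic, late, 1st and 2nd, and the late and 1st relapses did not differ beyond their spread (adjusted p 0.702).

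Elf3 also rose in every group, but in another order, with its mean highest in the 1st relapse and lowest of the 4 in the late relapse. The parental libraries had 321, 183 and 236 counts and the Chronic IFNG KP libraries 1980, 1204 and 1706. Those of the 1st relapse had 2115, 2306 and 2251, of the 2nd 1915, 1987 and 1739, and of the late relapse 701, 934 and 1061. The late relapse thus lay between the parental libraries and all others, without overlap. The folds over parental were 6.61 (1.61 ± 0.12 SE, limma adjusted p 4.0e-06), 9.02 (1.98, 2.6e-08), 7.63 (1.79, 1.2e-08) and 3.64 (1.005, 1.1e-05) in the same order of groups. The chronic and 2nd relapse libraries overlapped.

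Foxa3, the forkhead factor best known from liver and gut, was near the lower limit of the table in parental tumours and well above it elsewhere. Parental libraries had 17.9, 9.64 and 13.9 counts, and Chronic IFNG KP libraries had 159, 76.7 and 142. The 1st relapse had 237, 263 and 243, the 2nd 238, 249 and 197, and the late relapse 107, 128 and 141. No group overlapped the parental one, the 1st and 2nd relapses overlapped each other, and so did the chronic and late groups. The folds over parental were 9.11, 17.9, 16.5 and 9.07, the highest of any factor in each group, with log2 differences of 0.61 ± 0.07 SE (limma adjusted p 2.3e-05), 0.98 (7.6e-08), 0.93 (3.2e-08) and 0.62 (5.2e-06). Foxa3 remained low beside the other forkhead factors: per kilobase of exon, its 1st relapse level was 122 ± 6.79 (SD, n = 3) normalised counts, against 169 ± 23.0 for Foxa2 and 187 ± 5.31 for Foxa1.

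Within groups, the 4 rising factors also varied by library. In Chronic IFNG KP the 2nd replicate was lowest for Hnf4a, Elf3, Foxa3 and Foxa2 and highest for Foxa1 and Hmga2. The summed level of the 10 fibroblast markers in that library was 1378 CPM (counts scaled to a common library total, labelled in full in the plot of list levels), against 436 and 696 in the other chronic libraries, and its part in these values was not tested. Among parental libraries the 1st replicate was highest for Hnf4a, Elf3, Foxa3 and Foxa2, with a fibroblast sum of 627 CPM against 755 and 1013. Parental replicate 2, at 755 CPM, was lowest for all 4. Other groups differed. In the 1st relapse, replicate 2 had the highest fibroblast sum, 4048 CPM. It was highest of its group for Elf3, Foxa3 and Foxa2 and lowest for Hnf4a. Late relapse KP replicate 3, at 2506 CPM, was also highest of its group for Elf3, Foxa3 and Foxa2.

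Foxa2 and Gata6 were highest in the 2nd relapse. Foxa2 (chr2:148042877-148046969), which in adult lung and gut shares targets with Foxa1, had 251, 195 and 212 counts in parental libraries, 396, 309 and 403 in Chronic IFNG KP and 339, 446 and 414 in the 1st relapse. It had 1243, 1053 and 1269 counts in the 2nd relapse and 496, 678 and 739 in the late relapse. The chronic and 1st relapse libraries overlapped, and every late relapse library was above both groups and below the 2nd relapse. Foxa2 rose 1.69-fold in Chronic IFNG KP (0.33 ± 0.09 SE, limma adjusted p 0.0121), 1.82-fold in the 1st relapse (0.39, 0.00172), 5.42-fold in the 2nd (1.35, 4.7e-09) and 2.91-fold in the late relapse (0.76, 4.9e-06). The call in Chronic IFNG KP was lost without Parental KP replicate 2 (adjusted p 0.0501), Chronic IFNG KP replicate 1 (0.0536) or replicate 3 (0.0529).

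Gata6 counts were 591, 484 and 624 in parental libraries, 617, 562 and 648 in Chronic IFNG KP, and 678, 486 and 685 in the 1st relapse. In the 2nd relapse they were 1461, 1293 and 1554, and in the late relapse 839, 711 and 962. The first 3 of these groups overlapped and the 2nd relapse lay above every other library. Gata6 rose 2.54-fold in the 2nd relapse (0.89 ± 0.09 SE, limma adjusted p 5.0e-07) and 1.48-fold in the late relapse (0.34, 0.00403). In Chronic IFNG KP its log2 difference was 0.06 (adjusted p 0.661) and in the 1st relapse 0.07 (0.54).

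Foxa1 and Hmga2 went the other way. Foxa1 (chr12:57540628-57546916) had 627, 667 and 707 counts in parental libraries, 654, 736 and 711 in Chronic IFNG KP and 603, 624 and 639 in the 1st relapse. Its counts were 514, 507 and 514 in the 2nd relapse and 418, 420 and 476 in the late relapse, both below every parental library. Foxa1 was thus 1.30-fold lower in the 2nd relapse (-0.22 ± 0.04 SE, limma adjusted p 3.3e-04) and 1.52-fold lower in the late relapse (-0.34, 1.1e-05). Chronic IFNG KP (0.04, adjusted p 0.519) and the 1st relapse (-0.06, 0.252) did not pass. With quantile normalisation the 1st relapse did (adjusted p 0.0378), which made the factors called there 4 higher and 2 lower.

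Hmga2 (chr10:120361275-120476469) had 8141, 8284 and 7936 counts in parental libraries and 5971, 7082 and 6503 in Chronic IFNG KP. The 1st relapse had 6228, 6668 and 5774, the 2nd 3823, 4389 and 3910, and the late relapse 7359, 7131 and 6352. All parental libraries were above all others, the 2nd relapse was below all others, and the remaining 3 groups overlapped. Hmga2 was 1.25-fold lower in Chronic IFNG KP (-0.30 ± 0.07 SE, limma adjusted p 0.00776), 1.30-fold lower in the 1st relapse (-0.36, 8.1e-04), 2.01-fold lower in the 2nd (-0.92, 3.6e-08) and 1.17-fold lower in the late relapse (-0.21, 0.02). The late relapse call was lost without Parental KP replicate 2 (adjusted p 0.0566) or Late relapse KP replicate 3 (0.0979). The latter library, lowest of its group for Hmga2, had a fibroblast marker sum of 2506 CPM against 552 and 645 in the other late libraries. In parental KP the library with the highest fibroblast sum was likewise lowest for Hmga2. In Chronic IFNG KP, the 1st relapse and the 2nd relapse it was highest for Hmga2. The part of fibroblasts in these Hmga2 values was not tested.

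Nkx2-1 was near the lower limit in all KP groups. It had 8.05, 5.39 and 3.00 counts in parental libraries, 3.19, 6.43 and 1.16 in Chronic IFNG KP and 1.28, 1.94 and 0 in the 1st relapse. The 2nd relapse had 5.0, 3.21 and 9.42 and the late relapse 8.27, 5.41 and 10.3. These correspond to at most 10.6 estimated reads, and the library at 0 allows up to 4.87 normalised counts (3 reads), which covers counting error only. Every parental, 2nd relapse and late relapse library was above those of the 1st relapse, and all other pairs of groups overlapped. Without the filter the limma adjusted p was 0.0433 for the 2nd and 0.0167 for the late relapse against the 1st, from a handful of reads.

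Counted by comparison, 4 factors were called higher and 1 lower of the 7 tested in Chronic IFNG KP against parental, where 21.8% of all tested genes were called. The 1st relapse had the same split of 4 and 1 (background 50.9%), and the 2nd and late relapses each had 5 higher and 2 lower (65.8% and 56.9%). These comparisons share the parental libraries. Foxa3 is among the factors called higher in all 4 and, given how it passed the filter, the counts describe these 7 and support nothing further.

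**Figure D2:**
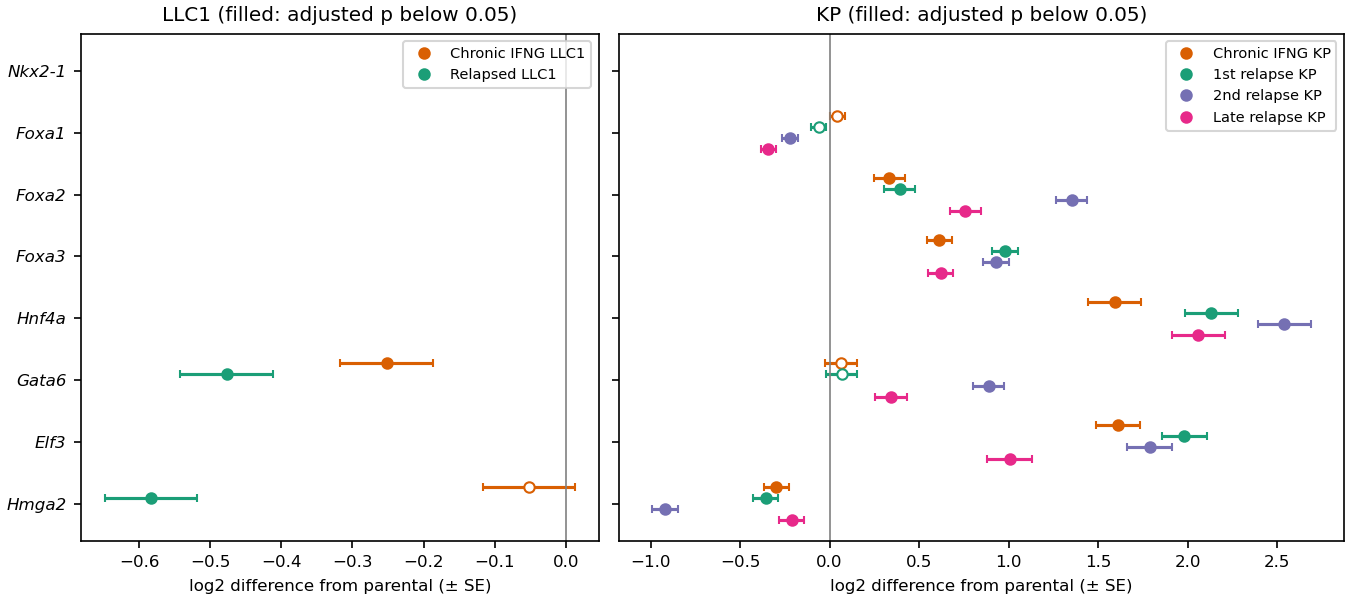
Log2 difference from parental tumours (horizontal axis, ± SE of the limma fit) for each factor that passed the filter, LLC1 left and KP right on separate scales. Filled points have an adjusted p below 0.05. In KP, Hnf4a and Elf3 lie at 1.005 or above in all 4 groups and Hmga2 below 0, while in LLC1 only Gata6 and Hmga2 could be tested.

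Relapses differed from each other in these factors. Against the 1st relapse, the 2nd had 3 factors higher and 2 lower, where 62.2% of genes were called. Foxa2 was 2.97-fold higher (limma adjusted p 2.3e-07), Gata6 2.33-fold higher (1.5e-06) and Hnf4a 1.38-fold higher (0.0275), whereas Hmga2 was 1.54-fold lower (8.3e-06) and Foxa1 1.22-fold lower (0.00412). The Hnf4a call was lost with quantile normalisation (adjusted p 0.177), on log2 of back-calculated counts plus 10 (0.0988), and without replicate 2 or 3 of either relapse (0.0635 to 0.0742). Elf3 had a log2 difference of -0.19 (adjusted p 0.188) and was called lower with quantile normalisation (0.041) or with only these groups in the fit (0.013). Quantile normalisation thus gave 2 factors higher and 3 lower.

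Against the 1st relapse, the late relapse had 2 factors higher and 3 lower (background 48.1%). Foxa2 was 1.60-fold higher (limma adjusted p 0.00294) and Gata6 1.36-fold higher (0.0183). Elf3 was 2.48-fold lower (2.8e-05), Foxa3 1.97-fold lower (8.7e-04) and Foxa1 1.42-fold lower (1.0e-04). Foxa3 passed the filter through the 1st and 2nd relapses alone, so its call and the count of 3 lower that holds it are a description. Gata6 lost its call with only these groups in the fit (adjusted p 0.0518), without 1st relapse KP replicate 2 (0.0955) and without Late relapse KP replicate 3 (0.0842). Hmga2, with a log2 difference of 0.15 (0.104), passed without Late relapse KP replicate 3 (0.0379).

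Against the 2nd relapse, the late relapse had 1 factor higher and 6 lower (background 54.9%). Hmga2 was 1.72-fold higher (limma adjusted p 1.1e-06), and Elf3 was 2.09-fold lower (9.6e-05), Foxa2 1.86-fold lower (4.1e-05), Foxa3 1.82-fold lower (0.00196), Gata6 1.71-fold lower (1.1e-04), Hnf4a 1.47-fold lower (0.0133) and Foxa1 1.17-fold lower (0.0248). The Foxa1 call was lost without the filter (adjusted p 0.0847), with only these groups in the fit (0.0542), and without replicate 1 or 3 of the 2nd relapse or replicate 1 or 2 of the late relapse (0.0578 to 0.0823). That of Hnf4a was lost on log2 of counts plus 10 (0.0594). Since Foxa3 passed the filter through the 1st and 2nd relapses alone, its call and the count of 6 lower are again a description.

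Compared per kilobase of exon, the order of the factors changed between groups. In parental KP tumours Hmga2 led at 1199 ± 25.8 (SD, n = 3) normalised counts per kilobase, followed by Foxa1 at 201 ± 12. Elf3 (111 ± 31.4), Foxa2 (92.4 ± 12.05), Gata6 (87.0 ± 11.2) and Hnf4a (79.7 ± 35.9) came next and were within each other's spread, with Foxa3 at 6.79 ± 2.03 and Nkx2-1 at 1.93 ± 0.89. In the 2nd relapse Hnf4a led at 906 ± 56.2, followed by Elf3 at 848 ± 57.5, and these were again within their spread. Hmga2 was at 597 ± 45.0, Foxa2 at 501 ± 49.8, Gata6 at 221 ± 20.3, Foxa1 at 154 ± 1.29, Foxa3 at 112 ± 13.5 and Nkx2-1 at 2.07 ± 1.13. These levels per kilobase use the union of annotated exons, not the transcripts in use.

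The genes whose values lay closest to each factor over the 15 KP libraries were found by the root mean square distance of centred log2 values, over all tested genes. For Hnf4a they were Myrf (0.17), Lsr (0.19) and Fermt1 (0.19), beside a root mean square of 0.90 for Hnf4a about its own mean. For Elf3 (0.73) they were F5 (0.13), the related ETS factor Ehf (0.14) and the keratin Krt7 (0.15), and for Foxa3 (0.36) Pck2 (0.09), Pllp (0.09) and Slc16a10 (0.09). For Foxa2 (0.47) they were Cidec (0.09), Ncoa4 (0.10) and Ror1 (0.12), and for Gata6 (0.34) Arpc2 (0.09), Tsta3 (0.09) and B3gnt3 (0.09). Foxa1 (0.15) was closest to Clpp (0.05), Srbd1 (0.06) and Hspa2 (0.06), and Hmga2 (0.32) to Piezo1 (0.07), Tmem198b (0.09) and Gdf11 (0.09). The libraries of a group share whatever sets that group apart, so these distances describe likeness over 5 groups and no more.

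Genes of the gut, liver and lung epithelium were read from lists beside the factors. A listed gene whose parental mean was below the filter was tested only because another group reached it. Rises of such genes, and the counts that hold them, are given as a description. Of 26 gastric and intestinal genes 25 were in the KP table and 19 were tested. Of all tested genes, 21.8% were called against parental in Chronic IFNG KP, 50.9% in the 1st relapse, 65.8% in the 2nd and 56.9% in the late relapse. In Chronic IFNG KP 14 of the 19 gut genes rose and the other 5 did not pass, in the 1st relapse 16 rose and 2 fell, in the 2nd 11 rose and 3 fell, and in the late relapse 16 rose and 1 fell. Their median log2 differences were 0.65, 1.58, 0.75 and 1.343. Their summed level went from 712 ± 91.8 (SD, n = 3) CPM in parental tumours to 1872 ± 452, 2700 ± 196, 3584 ± 125 and 2354 ± 82.1. Without Lgals2, left out after seeing the data, the sums were 710.3 ± 91.9 in parental tumours and 1866 ± 450.04, 2661 ± 193, 2651 ± 31.2 and 2194 ± 96.7, so that the 1st and 2nd relapses were within their spread.

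The gut genes that led differed by group. In Chronic IFNG KP they were the mucosal trefoil peptides Tff2 (15.1-fold) and Tff1 (15.3-fold), the intestinal galectin Lgals4 (7.69-fold) and the gastric protease cathepsin E, Ctse (6.68-fold). In the 1st relapse Agr2, which folds mucins, rose 42.9-fold, from 75.1 ± 45.1 to 3226 ± 415 counts. In the 2nd relapse Lgals2 rose from 39.8 ± 3.11 to 23745 ± 2624 counts, 597-fold, and the intestinal cadherin Cdh17 from 475 ± 102 to 16399 ± 1059, 34.6-fold. Late relapse tumours had Cdh17 at 11060 ± 750 (23.3-fold) and Lgals2 at 3790 ± 631 (95.3-fold). The parental means of Agr2 and Lgals2 lay below the filter of 144.2 counts, so their rises are descriptions.

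Of 22 liver genes 21 were in the KP table, but only 5 passed the filter, and Alb was at 0 in all 3 libraries of the 1st relapse. In Chronic IFNG KP 2 rose and the other 3 did not pass, in each of the 1st and 2nd relapses 2 rose and 2 fell, and in the late relapse 5 rose. Over all tested genes the shares called were 21.8%, 50.9%, 65.8% and 56.9% in the chronic, 1st, 2nd and late groups. Apob, the protein of liver and intestinal lipoproteins, rose from 193 ± 80.8 counts in parental tumours to 864 ± 283 in Chronic IFNG KP (4.47-fold), 9282 ± 1161 in the 1st relapse (48.1-fold) and 14755 ± 2252 in the late relapse (76.4-fold). In the 2nd relapse it had 292 ± 43.6 counts and did not pass (log2 difference 0.26 ± 0.16 SE, limma adjusted p 0.153). The summed level of the list, 53.1 ± 2.60 CPM in parental tumours, was 471 ± 57.9 in the 1st relapse, 136 ± 8.30 in the 2nd and 736 ± 86.5 in the late relapse. Most of the sum in the 1st and late relapses was Apob. Without it, again left out after seeing the data, the sum was 44.8 ± 3.59 CPM in parental tumours, 46.0 ± 3.46 in Chronic IFNG KP, 48.6 ± 2.50 in the 1st relapse, 124 ± 7.08 in the 2nd and 116 ± 4.08 in the late relapse. Ambp rose in all 4 groups, from 7.26 ± 5.16 counts to 305 ± 61.8 in the 2nd relapse, and Rbp4, the retinol carrier, was 4.68-fold higher there. The parental mean of Ambp lay below the filter of 144.2 counts, so its rise is a description.

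Lung epithelial genes were mixed. Of 21, 19 were in the KP table and 9 were tested: 5 rose and 1 fell in Chronic IFNG KP, 7 rose and 2 fell in the 1st relapse, and 3 rose and 4 fell in each of the 2nd and late relapses. Over all tested genes the shares called were 21.8%, 50.9%, 65.8% and 56.9% in the chronic, 1st, 2nd and late groups. Cldn18, a tight junction gene of lung and stomach, fell from 841 ± 203 counts in parental tumours to 270 ± 64.3, 29.5 ± 8.30, 145 ± 29.9 and 15.3 ± 10.5. The mucin Muc1 rose in all 4 groups, 7.62-fold, 11.5-fold, 3.47-fold and 4.84-fold. Surfactant protein Sftpd rose 18.7-fold in Chronic IFNG KP, from 8.89 ± 4.65 to 167 ± 54.3. Its parental mean lay below the filter of 144.2 counts, so it was tested only through another group and its rise is a description.

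**Figure D3:**
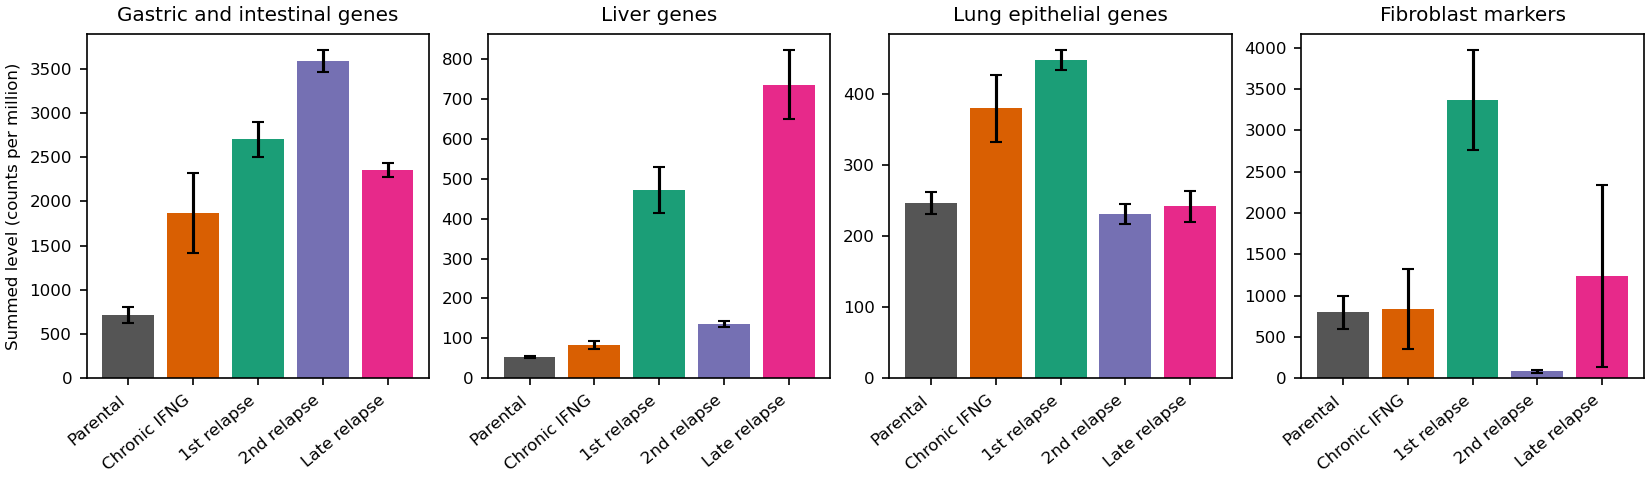
Summed level of 3 gene lists and of the fibroblast markers in KP tumours (vertical axis, CPM, 1 scale per panel). Bars are means and error bars SD of 3 libraries. The sum of gastric and intestinal genes is highest in the 2nd relapse (not so without Lgals2), that of liver genes in the late relapse (in the 2nd without Apob) and that of lung epithelial genes in the 1st, while fibroblast markers range from 83.1 in the 2nd relapse to 3368 in the 1st.

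Other lineage factors were read in KP tumours as well. Of 44 listed, 20 were tested, and 11 rose and 1 fell in Chronic IFNG KP, 11 and 4 in the 1st relapse, 10 and 6 in the 2nd, and 11 and 5 in the late relapse. The shares of all tested genes called there were 21.8%, 50.9%, 65.8% and 56.9%. Ehf rose 5.18-, 7.89-, 5.31- and 2.80-fold in the 4 groups, and Gata5, a gut and heart relative of Gata6, 6.58-, 11.01-, 12- and 6.67-fold. Id2, an inhibitor of helix-loop-helix factors, rose 6.66-fold in the 2nd relapse, and Spdef, a factor of mucous cells, 15.2-fold in the 1st.

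Of 14 embryonic state genes tested in KP, 9 fell, 1 rose and 4 did not pass in the 2nd relapse, where 65.8% of all tested genes were called. The counts were 2 fallen and 2 risen in Chronic IFNG KP (background 21.8%), 6 fallen and 4 risen in the 1st relapse (50.9%), and 7 fallen and 3 risen in the late relapse (56.9%). Igf2bp3, an RNA-binding protein of embryonic tissue, went in the 2nd relapse from 678 ± 80.9 to 16.9 ± 10.2 counts, Lin28b, which blocks let-7 processing, from 153 ± 36.4 to 5.29 ± 4.12, and the imprinted RNA H19 from 702 ± 134 to 10.6 ± 1.31. In the late relapse Igf2bp3 was 3.45-fold lower than in parental tumours and Igf2bp1 was 2.04-fold higher.

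Epithelial identity genes rose in every KP group, 14 of 18 tested in Chronic IFNG KP, 15 in the 1st and 2nd relapses and 13 in the late relapse, with 1 that fell in the 2nd relapse. The shares of all tested genes called, in either direction, were 21.8%, 50.9%, 65.8% and 56.9% in the chronic, 1st, 2nd and late groups. Epcam, the epithelial adhesion molecule, was 5.72-, 9.72- and 3.43-fold higher in the chronic, 1st and late groups, and E-cadherin, Cdh1, was 4.33-fold higher in the 2nd relapse. Fibroblast markers were at 798 ± 197 CPM in parental tumours, 837 ± 486 in Chronic IFNG KP, 3368 ± 605 in the 1st relapse, 83.1 ± 19.02 in the 2nd and 1235 ± 1102 in the late relapse. Of 9 tested, 0 were called by limma in Chronic IFNG KP (0 at an unadjusted p below 0.05), 7 rose in the 1st relapse, 9 fell in the 2nd and 1 rose in the late relapse. Macrophage markers summed to 84.4 ± 15.8 CPM in parental tumours and were highest in the 2nd relapse, 277 ± 21.9 CPM. Only 2 of these 8 markers were tested, and in the 2nd relapse 1 rose and 1 fell against parental tumours (background 65.8%). Leukocyte markers were at or below 19.5 CPM in every KP library. The part of these cells in the values of the factors was not tested.

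LLC1 tumours held little of most of these factors. Only Gata6 and Hmga2 passed the filter, and 6 did not. Both differed over the 3 LLC1 groups by the moderated F test (limma adjusted p 4.3e-04 for Gata6 and 5.5e-05 for Hmga2), where 60.7% of tested genes were called. In Chronic IFNG LLC1 against parental 1 factor of 2 was lower (background 24.5%), and in Relapsed LLC1 both were lower, against parental (45.4%) and against Chronic IFNG LLC1 (52.0%). Gata6 passed the filter through its parental mean alone, so these counts support nothing further.

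**Figure D4:**
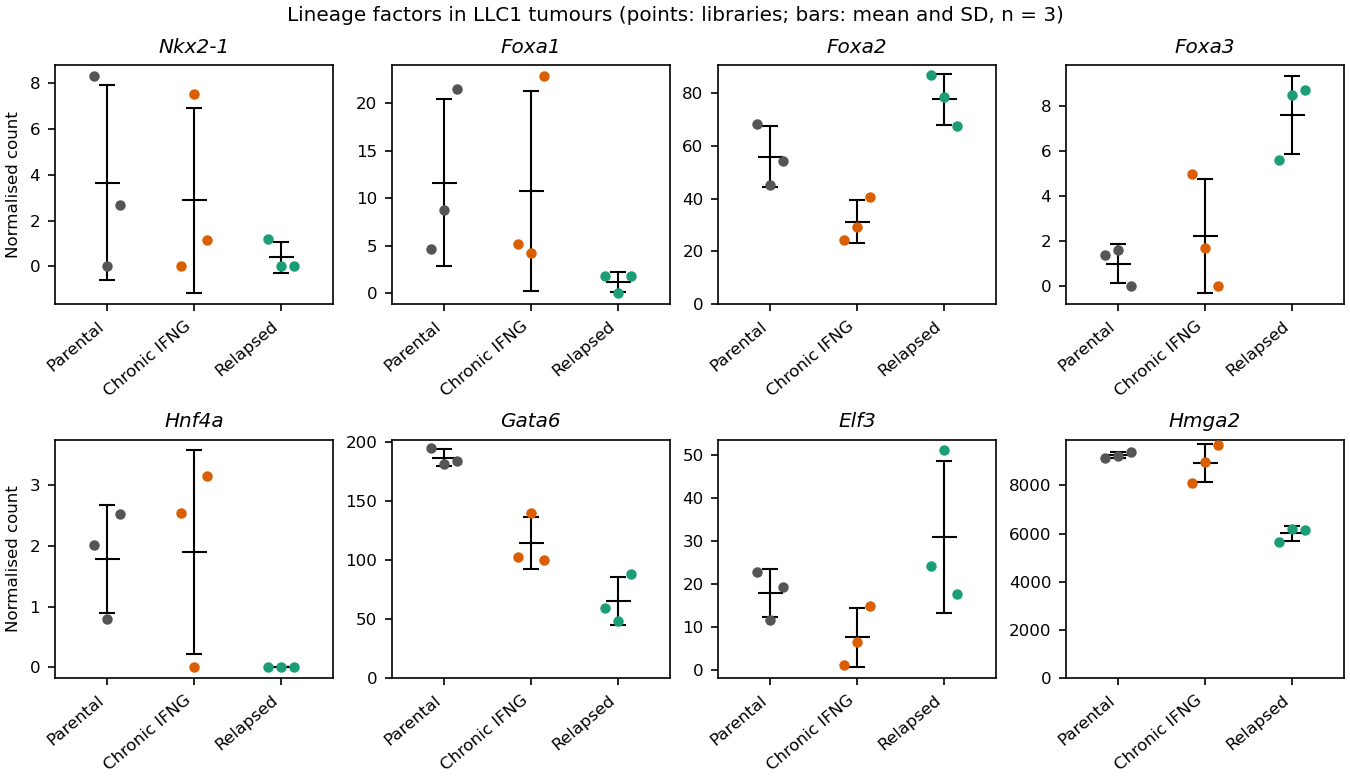
Normalised count of each factor (vertical axis, linear, 1 scale per panel) in the 9 LLC1 libraries by group. Points are libraries and black bars the mean and SD of 3. Hmga2 is the most abundant and is lowest in the relapsed tumours, Gata6 steps down over the 3 groups, and the other 6 stay at or below 87.0 counts.

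Hmga2 was the abundant member, with 9129, 9236 and 9378 counts in parental LLC1 libraries, 8119, 8980 and 9677 in Chronic IFNG LLC1, and 5671, 6200 and 6145 in Relapsed LLC1. The relapsed libraries were below all others and the other groups overlapped. Hmga2 was 1.54-fold lower in relapsed than in parental tumours (log2 difference -0.58 ± 0.06 SE, limma adjusted p 5.4e-05) and 1.49-fold lower than in chronic ones (-0.53, 7.1e-05). In Chronic IFNG LLC1 its log2 difference from parental was -0.05 (adjusted p 0.594), a sign that turned with quantile normalisation.

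Gata6 had 195, 181 and 184 counts in parental LLC1 libraries, 103, 140 and 99.9 in Chronic IFNG LLC1 and 59.8, 48.4 and 88.4 in Relapsed LLC1. No 2 groups overlapped. Only the parental mean, the highest, reached the filter, so Gata6 was bound to differ and the calls here are a description. It was 1.64-fold lower in chronic than in parental tumours (-0.25 ± 0.07 SE, limma adjusted p 0.0193), 2.85-fold lower in relapsed tumours (-0.48, 2.2e-04) and 1.74-fold lower in relapsed than in chronic ones (-0.23, 0.0143). The first call was lost with array weights (adjusted p 0.0532), without Parental LLC1 replicate 1 (0.0637) and without Chronic IFNG LLC1 replicate 1 (0.0532), and the last without Chronic IFNG LLC1 replicate 2 (0.0595) or Relapsed LLC1 replicate 2 (0.0609). The fibroblast marker sum was 13441 ± 2311 CPM in parental, 25222 ± 5953 in chronic and 13244 ± 901 in relapsed LLC1 tumours. Of the 10 markers, 8 were called higher in chronic than in parental tumours (background 24.5%), and 6 were called lower in relapsed than in parental ones (45.4%). Pericyte and smooth muscle markers summed to 23.2 ± 1.26 CPM in parental, 26.6 ± 3.997 in chronic and 43.6 ± 3.54 in relapsed tumours. Only 2 of these 7 markers were tested, and both were higher than parental in relapsed tumours (background 45.4%). Mesothelial markers summed to 1.33 ± 0.31, 2.40 ± 0.48 and 11.8 ± 1.33 CPM, with Wt1, Lrrn4, Upk1b and Calb2 at 0 in relapsed tumours. The 1 tested was higher than parental in relapsed tumours (45.4%). That marker could reach the filter in the relapsed group alone, so its rise is a description. Endothelial markers summed to 31.8 ± 4.22, 15.0 ± 1.33 and 25.6 ± 1.14 CPM in the parental, chronic and relapsed groups. Of these 8 markers 2 were tested. Both were lower than parental in chronic tumours (background 24.5%), and 1 was in relapsed ones (45.4%). Skin, fat and muscle markers summed to 7.055 ± 1.47, 2.76 ± 0.31 and 1.345 ± 0.07 CPM. The 1 tested was lower than parental in chronic (background 24.5%) and relapsed tumours (45.4%). It could reach the filter in the parental group alone, so its falls are a description. The part of these cells in the Gata6 and Hmga2 values was not tested.

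Foxa2 was the highest of the 6 that were not tested. It had 68.2, 45.2 and 54.3 counts in parental LLC1 libraries, 24.3, 29.2 and 40.5 in chronic and 87.0, 78.6 and 67.6 in relapsed ones, with the chronic group below and apart from both others. Elf3 had 22.7, 11.6 and 19.3, then 1.20, 6.40 and 15.0, then 24.2, 51.1 and 17.6. Without the filter, Foxa2 (limma adjusted p 0.00367) and Elf3 (0.0371) were called higher in relapsed than in chronic LLC1 tumours. Foxa1 ranged from 0 to 22.9 counts over the 9 libraries, Foxa3 from 0 to 8.73 and Nkx2-1 from 0 to 8.30. Foxa3 was called higher in relapsed than in parental tumours without the filter (0.0487). Hnf4a had at most 3.16 counts and was at 0 in all 3 relapsed libraries, which allows up to 3.34 normalised counts (3 reads) in the shallowest of them.

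Of the 26 gastric and intestinal genes 15 were in the LLC1 table and 0 passed the filter there, and their sum was 4.39 ± 0.98, 8.32 ± 2.60 and 3.29 ± 0.36 CPM in the parental, chronic and relapsed groups. Of 11 embryonic state genes tested, 5 rose and 1 fell in Chronic IFNG LLC1, and 2 rose and 6 fell in Relapsed LLC1. Over all tested genes the shares called against parental were 24.5% and 45.4% in these 2 groups. In relapsed tumours H19 went from 2793 ± 692 to 99.9 ± 58.2 counts, Igf2bp1 from 445 ± 45.3 to 18.4 ± 10.2, and Hmga1, the other HMGA family gene, was 1.70-fold lower, while Cd109 rose 2.15-fold, from 2607 ± 167 to 5610 ± 32.8. Among 14 other lineage factors 1 fell and 13 did not pass in chronic, and 3 rose and 7 fell in relapsed LLC1 tumours, where Sox9, a factor of lung and gut progenitors, was 2.17-fold lower. Over the 9 LLC1 libraries the values closest to Gata6 (root mean square 0.21) were those of Egln1 (0.06), Fermt2 (0.06) and Zadh2 (0.06), and the closest to Hmga2 (0.27) were Rack1 (0.06), Traf4 (0.06) and Tmem173 (0.06).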

How the data were processed

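RNA-seq of sorted CD45-negative tumour cells was analysed from log2 values that the authors deposited after variance stabilisation, in separate LLC1 and KP tables; build GRCm38/mm10 and the tools Salmon 1.8.0, DESeq2 1.34.0 and cutadapt 2.9 are listed, without roles, per the submitters' processing notes. The lowest value of each table was taken as a count of 0 and the stabilisation inverted to give normalised counts; 72.8% to 79.0% of low values fell within 0.15 reads of whole reads (30% by chance). Symbols came from GENCODE vM21. Genes were kept where a group mean lay 1 log2 unit above the lowest value (130.4 counts in LLC1, 144.2 in KP), leaving 10581 and 11193. Differences were fitted with limma 3.58.1 (intensity trend, all groups of a line together, Benjamini-Hochberg) in R 4.3.3. An exact test of 3 against 3 libraries cannot go below 0.10, so p-values rest on this variance model. It was run on simulated data with independent normal noise, each gene's own spread and few changed genes. Log2 steps of 0.5 were recovered there in 92.5% of changed genes for Chronic IFNG KP and 87.7% for Chronic IFNG LLC1. Steps of 0.25 were recovered in 54.8% and 41.1%. The simulation assumes normal noise, so it does not test the variance model. With few genes changed, its recovery rates need not hold for the data. Alternatives were other filters, scalings, weights and fits, a replicate block, and each library left out. No source ties replicate numbers to a shared batch. All 3 same-number correlations were over 0.1 in the 1st relapse against parental KP alone (0.149, 0.112 and 0.206). Single pairs elsewhere in KP reached 0.266, and pairing was not tested. Named genes were all 8 factors, the 3 nearest genes to each, and up to 4 genes with the largest difference from each list; a gene that this rule named is not reported here. The factors and lists were chosen with earlier results of these data known. Plots were made in matplotlib 3.10.9 under Python 3.11.15.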

Additional observations from a re-analysis of the deposited data

Results flagged for a closer look

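For the following factors every library of a group lay on one side of its parental mean in LLC1, and every library of the matching KP group on the other side. The tables were normalised separately, and the difference between lines was not tested. Foxa2 in chronic IFNG tumours had a log2 difference of -0.17 in LLC1, where it was below the filter, and 0.33 in KP. Without the filter its limma adjusted p in LLC1 was 0.106. Its KP call was lost without Parental KP replicate 2, Chronic IFNG KP replicate 1 or Chronic IFNG KP replicate 3. Elf3 in chronic IFNG tumours was at -0.15 in LLC1 and 1.61 in KP. In LLC1 it too was below the filter, its chronic and parental libraries overlapped, and the limma adjusted p without the filter was 0.335. Hnf4a in relapsed LLC1 tumours was at -0.12, from at most 3.16 counts, and in KP at 2.13 in the 1st, 2.54 in the 2nd and 2.06 in the late relapse. Gata6 was at -0.48 in relapsed LLC1 tumours, and in KP at 0.89 in the 2nd and 0.34 in the late relapse. In LLC1 only its parental mean reached the filter, so its fall there is a description.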

How the results depend on the processing

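The 64 results for a tested factor and comparison include the F tests, which have no direction. They kept direction and side of the threshold under 519 of 531 settings of the fit and 891 of 912 fits without 1 library. The rest are given beside their results. Each library of a line was left out in turn. Many of the 912 fits thus lacked a library outside the groups compared, which could change the p-value but not the difference. The share kept therefore overstates stability. With quantile normalisation the Hmga2 difference in Chronic IFNG LLC1 turned to 0.0025, and it ranged from -0.1087 to 0.0111 with 1 library left out (0.0111 without Chronic IFNG LLC1 replicate 1); that of Foxa3 between the 2nd and 1st relapses turned to 0.0337 with quantile normalisation, and the cause was not tested. A filter of 3 log2 units tested fewer factors and called 0 in Chronic IFNG LLC1, 1 in each other LLC1 comparison and by the LLC1 F test, 3 in each KP comparison with parental, between the late and 2nd relapses and by the KP F test, 2 between the 2nd and 1st relapses, and 1 between the late and 1st. Without a filter 4 were called between relapsed and chronic LLC1. Array weights left 0 called in Chronic IFNG LLC1. Leaving out 1 library gave 0 to 1 called there and 1 to 2 between relapsed and chronic LLC1. Outside the 1st relapse against parental KP, no 2 groups had all 3 same-number correlations over 0.1. These ranged from -0.303 to 0.08 in LLC1 and from -0.218 to 0.266 over all KP pairs. With the replicate block the counts stayed at 1, 2 and 2 in LLC1 and 5, 5, 7 and 7 against parental KP, and no call changed. Scalings moved the median of all genes by less than 0.1. Depth limits statements on Nkx2-1 in both lines and on Foxa1, Foxa3, Hnf4a and Elf3 in LLC1, which rest on few reads.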
